A study of Mus musculus with 23 samples.

Results

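The heat response of p53 wildtype embryos was measured as 4 heat pools against 4 control pools, 8 of the 23 arrays of the series, chosen by genotype and bath from the sample titles. Pools labelled p53 +/+ Heat Shock A to D held wildtype embryos bathed for 10 minutes at 43 °C, and pools labelled p53 +/+ Control A to D held wildtype embryos bathed for 10 minutes at 38 °C. All embryos were of day 8.5 and came from crosses of p53 heterozygous mice, so wildtype embryos could share litters with heterozygous and null ones. Each pool was total RNA of 3 to 7 whole embryos, hybridised to a 1-colour CodeLink oligonucleotide array; the strain, the sex of the embryos and the time from bath to collection were not given. The comparison with other genotypes used heterozygous heat against control pools (4 and 4) and null heat against control pools (3 and 4). The letters A to D name pools and no litter is named, so p-values rest on pool-to-pool spread alone, which may be partly technical.

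Cells that meet a sudden rise in temperature accumulate unfolded protein, which releases heat shock factor 1 to bind heat shock elements and raise transcripts of chaperones such as Hsp70 and the small heat shock proteins. p53 is a transcription factor that is held low by Mdm2 in unstressed cells and, when stabilised by stress, raises genes of cell cycle arrest and of cell death. The neural tube closes around the embryonic stage studied here, and hyperthermia at this stage is a known cause of failed closure in rodents.

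Of the 36227 probes on the array, 25077 had at least 3 values in each bath and were tested. Heat changed 733 of them (2.92%; limma with Benjamini-Hochberg adjustment over all 25077 probes, threshold 0.05), 316 higher (1.26%) and 417 lower (1.66%) in heat pools. "Rose" and "fell" are used here for probes past that threshold. With 1 probe for each gene, 167 of 13932 named genes rose (1.2%) and 311 fell (2.23%), together 3.43%, and 55.1% of all named genes had a log2 change below 0. The heat and control pools did not overlap for 3149 probes (12.6%). The median log2 change over all tested probes was 0.01. Without control pool A, C or D the count of changed probes was 440, 398 or 389, and with the values as deposited it was 2111, of which 12.7% were higher in heat against 43.1% in the scaled values.

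The 4 heat pools fell into 2 pairs. Pearson's r over log2 values was 0.993 between heat pools A and B, 0.993 between C and D, and 0.979 to 0.98 across the pairs, while the control pools correlated at 0.989 to 0.995. Ribosomal protein genes (27 tested) had median log2 differences from the control mean of 0.29, 0.29, -0.45 and -0.62 in heat pools A to D, against 0.07, -0.03, 0.00 and -0.07 in control pools A to D. The list of the 2 cold-inducible RNA-binding protein genes, Cirbp and Rbm3, had medians of 0.58, 0.59, -0.21 and -0.21 in heat pools A to D. Rbm3 carried this split. Over the fits with other settings or pools left out, the log2 change of Rbm3 ran from -0.80 to 0.79. That of Cirbp ran from 0.12 to 0.42, and neither gene passed the test between baths in the main fit. Among the other fits Rbm3 passed only without heat pools A and B (adjusted p = 0.0283), and Cirbp passed in none. Heat columns had 129 to 144 coded cells, whereas control columns had 8874 to 11610 empty ones, so bath and array processing cannot be told apart. Of the untested probes 91 had a median above 3 in heat pools and too few control values. Among them were 35 for ribosomal proteins named Rpl or Rps with a number, besides Rplp0 and Rplp2.

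Inducible heat shock genes rose. Hspa1a, an inducible cytosolic Hsp70, had intensities of 79.1, 0.877, 123 and 103 in heat pools A to D, against 0.985, 0.754, 1.04 and 0.697 in control pools A to D (log2 change 5.16 ± 1.22 SE, adjusted p = 0.0244). Hspa1b, its near-identical neighbour in the genome, had 101, 4.18, 126 and 125 in heat pools, against 4.64, 4.56, 5.77 and 3.77 in control pools (3.45 ± 0.84, adjusted p = 0.0291). For both genes 3 heat pools stood far above every control, and heat pool B lay within the control range, so the groups overlap. The probes of these paralogs may share signal, and the 2 genes are not independent observations. Without heat pool B the log2 changes were 6.87 for Hspa1a and 4.65 for Hspa1b. The call of Hspa1a was lost without any one of heat pools A, C or D or control pools C or D (adjusted p up to 0.0809), that of Hspa1b without any one pool but heat pool B (up to 0.0925), and both in a fit on the 8 wildtype arrays alone (0.11 for Hspa1a and 0.122 for Hspa1b).

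Hspb1, a small heat shock protein that holds unfolded protein and stabilises actin, separated the baths in every pool. Its intensity was 91.0, 78.3, 96.4 and 93.8 in heat pools A to D, against 17.3, 18.7 and 15.7 in control pools A, C and D, with control pool B empty. The means were 89.9 ± 8.03 in heat pools and 17.2 ± 1.49 in control pools (SD, n = 4 and 3), a log2 change of 2.38 ± 0.11 (adjusted p = 3.94e-11). Heat pool B, at control level for Hspa1a and Hspa1b, lay with the other heat pools for Hspb1. Hspb8, a small heat shock protein that works with Bag3 in clearing misfolded protein, had 5.61, 5.92, 7.69 and 7.95 in heat pools, against 3.09, 3.37, 3.08 and 4.25 in control pools (0.97 ± 0.22, adjusted p = 0.0188). Hsp90aa1, the inducible cytosolic Hsp90, had 173, 164, 132 and 142 in heat pools and 125, 113, 116 and 112 in control pools (0.39 ± 0.08, adjusted p = 0.0122). The baths did not overlap for either gene. The call of Hspb8 was lost in the deposited scale (adjusted p 0.0644) and without heat pool C or D or control pool C (up to 0.0593). The change of Hsp90aa1 was 0.21 with median scaling and 0.09 in the deposited scale, and its call was lost in both (adjusted p 0.345 and 0.744), without heat pools A and B (0.102) and in a fit on the 8 wildtype arrays alone (0.077).

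The promoters of the risen heat shock genes are shown because heat shock factor 1 binds inverted GAA units. The sequences are from RefSeq (GRCm38.p6, 250 bases before to 50 after the annotated start, 5′ to 3′ on the gene's strand), with GAANNTTC or TTCNNGAA in capitals, searched on both strands. Hspa1a is at chr17:34972107-34972406 on the minus strand, Hspb1 at chr5:135887669-135887968 on the plus strand and Hspb8 at chr5:116422815-116423114 on the minus strand.
Hspa1a: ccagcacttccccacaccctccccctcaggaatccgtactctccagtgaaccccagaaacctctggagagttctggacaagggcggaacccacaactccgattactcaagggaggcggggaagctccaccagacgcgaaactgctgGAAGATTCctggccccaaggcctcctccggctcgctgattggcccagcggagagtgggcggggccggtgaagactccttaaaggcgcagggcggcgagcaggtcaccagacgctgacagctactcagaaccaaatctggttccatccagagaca
Hspb1: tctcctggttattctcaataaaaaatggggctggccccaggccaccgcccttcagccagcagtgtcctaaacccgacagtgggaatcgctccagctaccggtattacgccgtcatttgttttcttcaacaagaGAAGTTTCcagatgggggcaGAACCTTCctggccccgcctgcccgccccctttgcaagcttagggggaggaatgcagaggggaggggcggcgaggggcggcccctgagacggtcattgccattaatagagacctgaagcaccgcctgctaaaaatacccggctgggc
Hspb8: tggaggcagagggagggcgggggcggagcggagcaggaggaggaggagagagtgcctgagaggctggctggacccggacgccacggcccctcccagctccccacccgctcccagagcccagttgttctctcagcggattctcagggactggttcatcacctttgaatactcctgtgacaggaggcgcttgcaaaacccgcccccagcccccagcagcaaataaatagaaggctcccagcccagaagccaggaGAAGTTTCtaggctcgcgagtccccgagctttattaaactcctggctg
The match begins 104 bases before the start in Hspa1a and 117 and 97 bases before it in Hspb1, and 2 bases after it in Hspb8. Of the 5 risen genes 4 had a promoter in the table, and all 4 (Hspa1a, Hspa1b, Hspb1 and Hspb8) held the motif, which 15.1% of all 32851 promoters hold. Other sets described below held it too. It was in 3 of 13 risen p53 targets (Ak1, Cdkn1a and Dcxr) and 2 of 4 fallen cholesterol genes (Idi1 and Tm7sf2). None of 5 risen germline genes held it. The longer run of 3 inverted units, GAANNTTCNNGAA or TTCNNGAANNTTC, was in none of the 4 and in 0.603% of all promoters. For a run this rare a count of none among 4 genes says little. A match describes the letters in this window and is no evidence of binding.

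**Figure D1:**
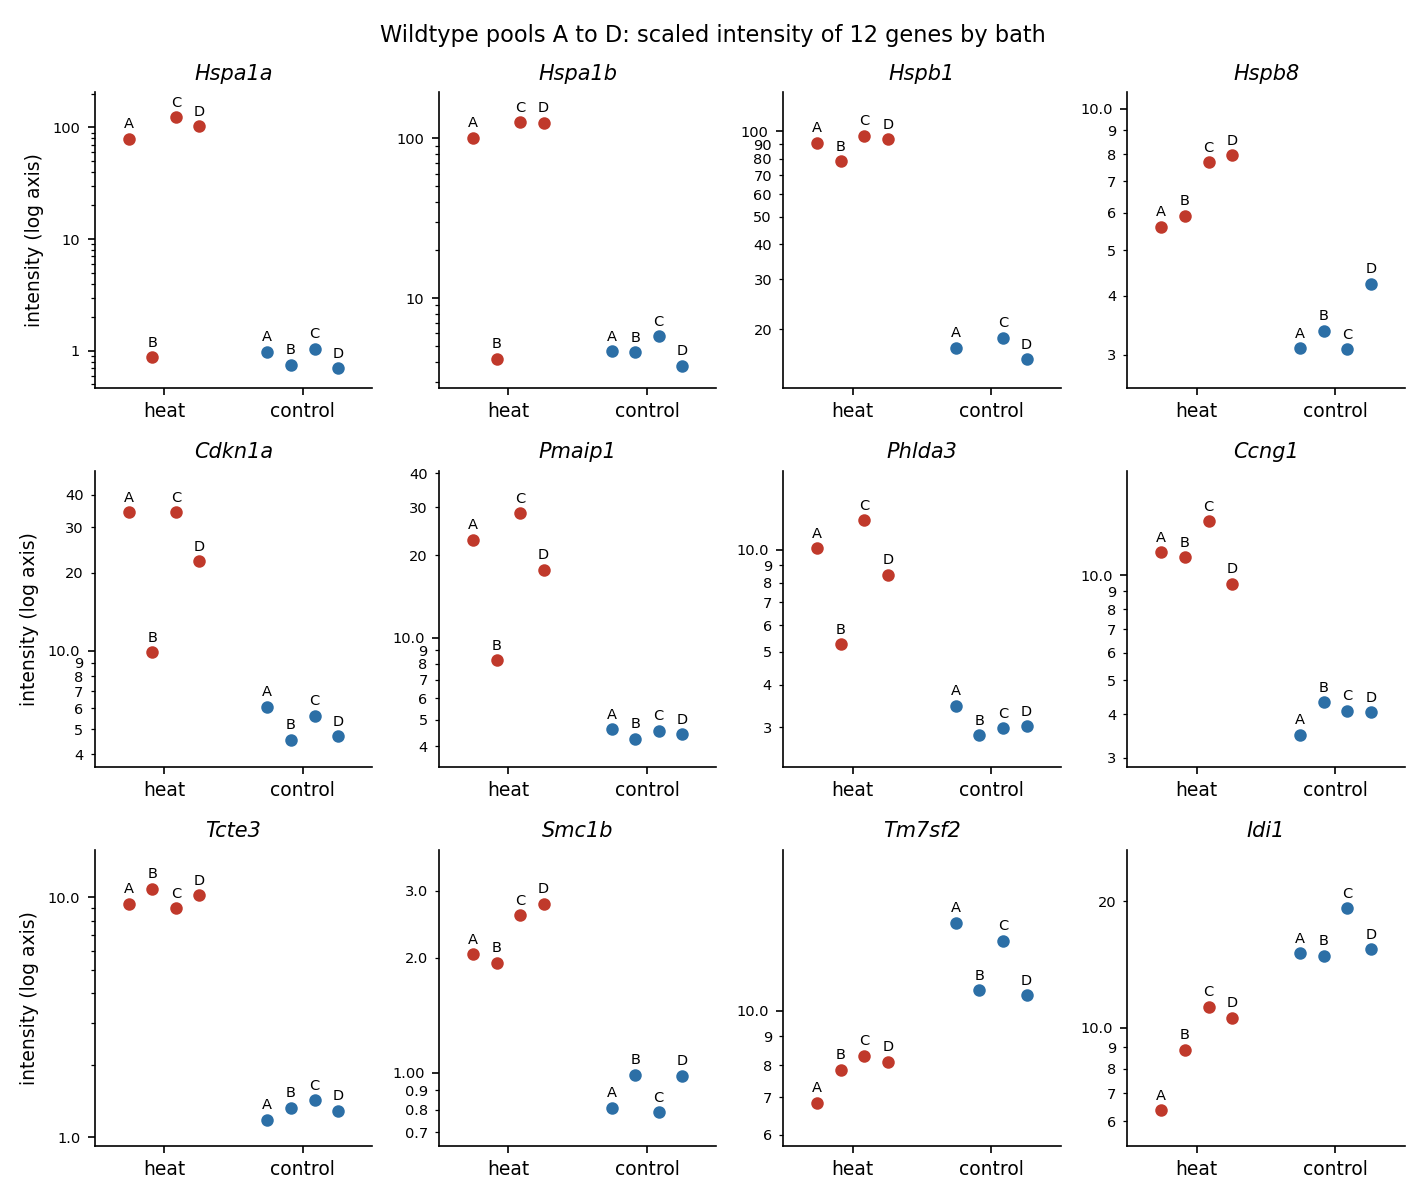
Scaled intensity (log axis) of 12 genes in each wildtype pool, heat at the left and control at the right of each panel, 1 lettered point a pool; a pool without a value has no point. Heat pool B sits with the controls for Hspa1a (0.877) and Hspa1b (4.18) and with the other heat pools for Hspb1 (78.3) and Tcte3 (10.8).

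Most chaperone genes did not pass the test. Of 82 tested heat shock and chaperone genes (95 listed, 90 with a probe) 5 rose and 2 fell, 8.54% against 3.43% of all named genes, and their median log2 change was -0.05 beside -0.02 over all named genes. The 5 rises became 1 without control pool C, 2 without heat pool C or D or control pool D, and 3 without heat pool A. None of 10 chaperonin subunits, which form the cytosolic and mitochondrial folding chambers, and none of 21 co-chaperones and heat shock factors passed. Of the heat shock genes that rise in many heated cells, Hsph1, an Hsp110 exchange factor of Hsp70, had 5.86, 3.89, 3.05 and 2.63 in heat pools and 3.93, 2.31, 2.44 and 2.69 in control pools (adjusted p = 0.45). Dnajb1, the J-domain partner of Hsp70, had 10.7, 6.39, 15.5 and 13.8 in heat pools, against 13.7, 11.1, 11 and 11.7 in control pools (adjusted p = 0.84). Bag3, the co-chaperone that links Hsp70 to small heat shock proteins, had 3.13, 2.09, 4.48 and 3.99 in heat pools, against 2.45, 2.71, 2.17 and 2.62 in control pools (adjusted p = 0.25). The baths overlapped for all 3 genes, and heat pool B was the lowest heat pool for Dnajb1 and Bag3. The constitutive Hspa8 had too few control values and was not tested. Of 4 Hsp90 genes listed 3 had a probe with 1 symbol, and all 3 were tested. Hspb3, a small heat shock protein of muscle, fell (0.779, 1.36, 1.45 and 1.36 in heat pools, 2.12, 2, 2.62 and 2.36 in control pools, log2 change -0.91 ± 0.15, adjusted p = 0.00218), as did the J-domain protein gene Dnajc17 (-0.32 ± 0.08, adjusted p = 0.0411), whose call was lost without heat pool C or D or control pool A (adjusted p up to 0.116).

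A larger share of p53 targets than of all named genes rose. Of 54 tested (68 listed, 59 with a probe) 15 rose, which is 27.8% of the list beside 1.2% of all named genes, and none fell, beside 2.23%, and the list's median log2 change was 0.16. The list was drawn up with earlier results of these data known, so its share is a description. The count was 9 without heat pools C and D. The list's median in each pool, as a log2 difference from the control mean, was 0.32, 0.09, 0.29 and 0.17 in heat pools A to D, against 0.04, -0.04, 0.02 and -0.01 in control pools. Heat pool B was again the lowest of the heat pools, and all 4 lay above the controls.

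Among arrest genes 4 of 11 tested rose (36.4%, beside 1.2% of all named genes). Cdkn1a, which encodes the cyclin-dependent kinase inhibitor p21, had 34.2, 9.89, 34.4 and 22.3 in heat pools A to D, against 6.10, 4.55, 5.62 and 4.70 in control pools (log2 change 2.12 ± 0.50, adjusted p = 0.025). Every heat pool exceeded every control, with heat pool B nearest to them. The call of Cdkn1a was lost without heat pool A, C or D (adjusted p 0.0759, 0.0772 and 0.0549) or control pool B, C or D (0.0539, 0.0529 and 0.059). Ccng1, which encodes cyclin G1, a partner of protein phosphatase 2A that feeds back on p53, had 11.6, 11.3, 14.2 and 9.46 in heat pools, against 3.49, 4.33, 4.09 and 4.06 in control pools (1.53 ± 0.20, adjusted p = 0.000174). For Ccng1 heat pool B did not stand apart. Sesn2, an inhibitor of mTORC1, rose by 1.11 ± 0.19 (adjusted p = 0.00295) and the polo-like kinase gene Plk2 by 0.82 ± 0.20 (adjusted p = 0.0299). The call of Plk2 was lost without the same pools as that of Cdkn1a (adjusted p up to 0.093). Btg2, Gtse1 and Gadd45a did not pass, at log2 changes of 0.60, 0.58 and -0.13.

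Cell death targets that rose were 3 of 10 tested (30%, beside 1.2% of all named genes). Pmaip1, which encodes the BH3-only protein Noxa, had 22.8, 8.27, 28.5 and 17.7 in heat pools A to D, against 4.62, 4.25, 4.55 and 4.42 in control pools (log2 change 1.98 ± 0.27, adjusted p = 0.000322). Bbc3, which encodes the BH3-only protein Puma, had 4.55, 2.81, 6.80 and 5.62 in heat pools, against 2.09, 2.46, 2.35 and 2.55 in control pools (0.997 ± 0.19, adjusted p = 0.00515). The baths did not overlap for either gene, and heat pool B was the lowest heat pool for both. The call of Bbc3 was lost in a fit on the 8 wildtype arrays alone (adjusted p 0.0806) and without heat pools C and D (log2 change 0.60, adjusted p 0.0768). Zmat3, an RNA-binding zinc finger gene, had 37.4, 35.9, 36.5 and 38.7 in heat pools and 30.3, 25.7, 26.3 and 27.1 in control pools (0.44 ± 0.06, adjusted p = 0.00053). In the deposited scale the change of Zmat3 was 0.21 and did not pass (adjusted p 0.248). Of the core apoptosis machinery, caspases and Bcl2 family members among them, none of 24 tested genes passed. Bax had no probe with its symbol alone and was not tested.

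Feedback, metabolic and other p53 targets gave the remaining rises. Phlda3, a repressor of Akt signalling, had 10.1, 5.28, 12.2 and 8.45 in heat pools A to D, against 3.47, 2.84, 2.98 and 3.02 in control pools (log2 change 1.49 ± 0.19, adjusted p = 0.000148). Slc19a2, a thiamine transporter, rose by 1.33 ± 0.27 (adjusted p = 0.00846), and the sugar reductase gene Dcxr by 1.08 ± 0.12 (adjusted p = 3.56e-05). Heat pool B was the lowest heat pool for Phlda3 and Slc19a2 (2.56) and the highest for Dcxr (5.14). Klhl26 (0.77), Abhd4 (0.68), the adenylate kinase gene Ak1 (0.66), Psrc1 (0.59) and Zfp365 (0.54) also rose. Mdm2, the ubiquitin ligase that degrades p53, had 1.13, 0.51, 0.60 and 0.50 in heat pools and 0.66, 0.54, 0.54 and 0.56 in control pools, near the floor of 0.499, and did not pass (adjusted p = 0.76). Cpt1c, a carnitine palmitoyltransferase gene of the list, had 2 probes that disagreed. Its brighter probe did not pass (-0.06, adjusted p = 0.76), and its dimmer one rose by 0.93 ± 0.09 (adjusted p = 2.87e-06).

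Promoters of Cdkn1a and Ccng1 are printed because p53 binds a pair of decamers. The decamer pattern searched was RRRCWWGYYY without mismatch, where R is A or G, W is A or T and Y is C or T. Letters matching the decamer pattern, with the spacer between the pair in Cdkn1a, are in capitals in both RefSeq windows (GRCm38.p6, the gene's strand), Cdkn1a at chr17:29090729-29091028 on the plus strand, which is its upstream annotated start, and Ccng1 at chr11:40755237-40755536 on the minus strand.
Cdkn1a: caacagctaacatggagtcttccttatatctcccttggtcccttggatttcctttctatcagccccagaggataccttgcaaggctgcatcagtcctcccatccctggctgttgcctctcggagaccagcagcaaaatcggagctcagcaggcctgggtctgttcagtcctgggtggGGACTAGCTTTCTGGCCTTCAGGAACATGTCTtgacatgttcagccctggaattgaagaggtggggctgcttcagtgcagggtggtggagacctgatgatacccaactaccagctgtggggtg
Ccng1: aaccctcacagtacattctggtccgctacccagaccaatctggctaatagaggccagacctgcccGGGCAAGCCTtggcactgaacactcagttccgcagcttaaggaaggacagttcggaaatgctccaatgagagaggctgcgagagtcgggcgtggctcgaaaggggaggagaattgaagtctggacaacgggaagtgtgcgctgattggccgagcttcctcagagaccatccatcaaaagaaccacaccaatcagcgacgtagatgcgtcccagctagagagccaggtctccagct
In Cdkn1a the letters tgacatgttc, directly after the capitals, miss the pattern only at their first base, so they are in lower case. The capitals therefore mark strict matches only, and the pair that p53 binds may be another. The search allowed up to 13 bases between paired decamers. In this strict form the paired p53 element was present in 24 of all promoters (0.0731%) and in Cdkn1a alone among 13 risen p53 targets with a promoter in the table. A single p53 decamer was present in 8.36% of all promoters and in 3 of those 13 genes (Abhd4, Ccng1 and Cdkn1a). The 13 genes have 22 promoters in the table, so counts of genes and shares of promoters are not like measures.

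Of 18 tested genes best known from germ cells and meiosis 6 rose (33.3%, beside 1.2% of all named genes) and none fell. Members of this list were chosen with earlier results of these data known, so the share is a description. Tcte3, a dynein light chain gene expressed in testis, had 9.40, 10.8, 9.02 and 10.2 in heat pools A to D, against 1.19, 1.33, 1.43 and 1.29 in control pools (log2 change 2.91 ± 0.12, adjusted p = 2.86e-12). It had the smallest p of all tested probes, and heat pool B was the highest heat pool. Rbmxl2, a testis RNA-binding protein gene, had 2.23, 2.14, 2.41 and 2.76 in heat pools, against 0.577, 0.666, 0.739 and 0.561 in control pools (1.91 ± 0.13, adjusted p = 5.96e-08). Smc1b, a meiotic cohesin subunit, had 2.05, 1.94, 2.59 and 2.77 in heat pools, against 0.811, 0.989, 0.789 and 0.983 in control pools (1.38 ± 0.14, adjusted p = 1.06e-05). Both genes were near the lower end of the array's range in control pools and higher in all heat pools. The meiotic recombinase gene Dmc1 (1.17 ± 0.12, adjusted p = 1.06e-05), the meiotic cohesin gene Stag3 (0.66 ± 0.16, adjusted p = 0.0301) and Tex15, needed for meiotic recombination and transposon silencing in testis (0.76 ± 0.20, adjusted p = 0.0408), rose too. The call of Stag3 was lost without heat pool C or D or control pool A, B or C (adjusted p up to 0.0939), and that of Tex15 without any one heat pool or control pool C (up to 0.0791). The list had 38 members with a probe, of which 18 were tested, since many had empty control cells, and 14 of those 18 had a log2 change above 0. The 33.3% is thus a share of tested members only. Some untested members were very dim in heat pools as deposited, such as Stra8 (0.07 to 0.30), Spo11 (0.14 to 0.33) and Sycp1 (0.05 to 0.22). Others were brighter, such as Sohlh2 (1.19 to 1.56) and Mael (0.55 to 0.69). Of 5 of these genes with a promoter in the table none held GAANNTTC or TTCNNGAA.

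**Figure D2:**
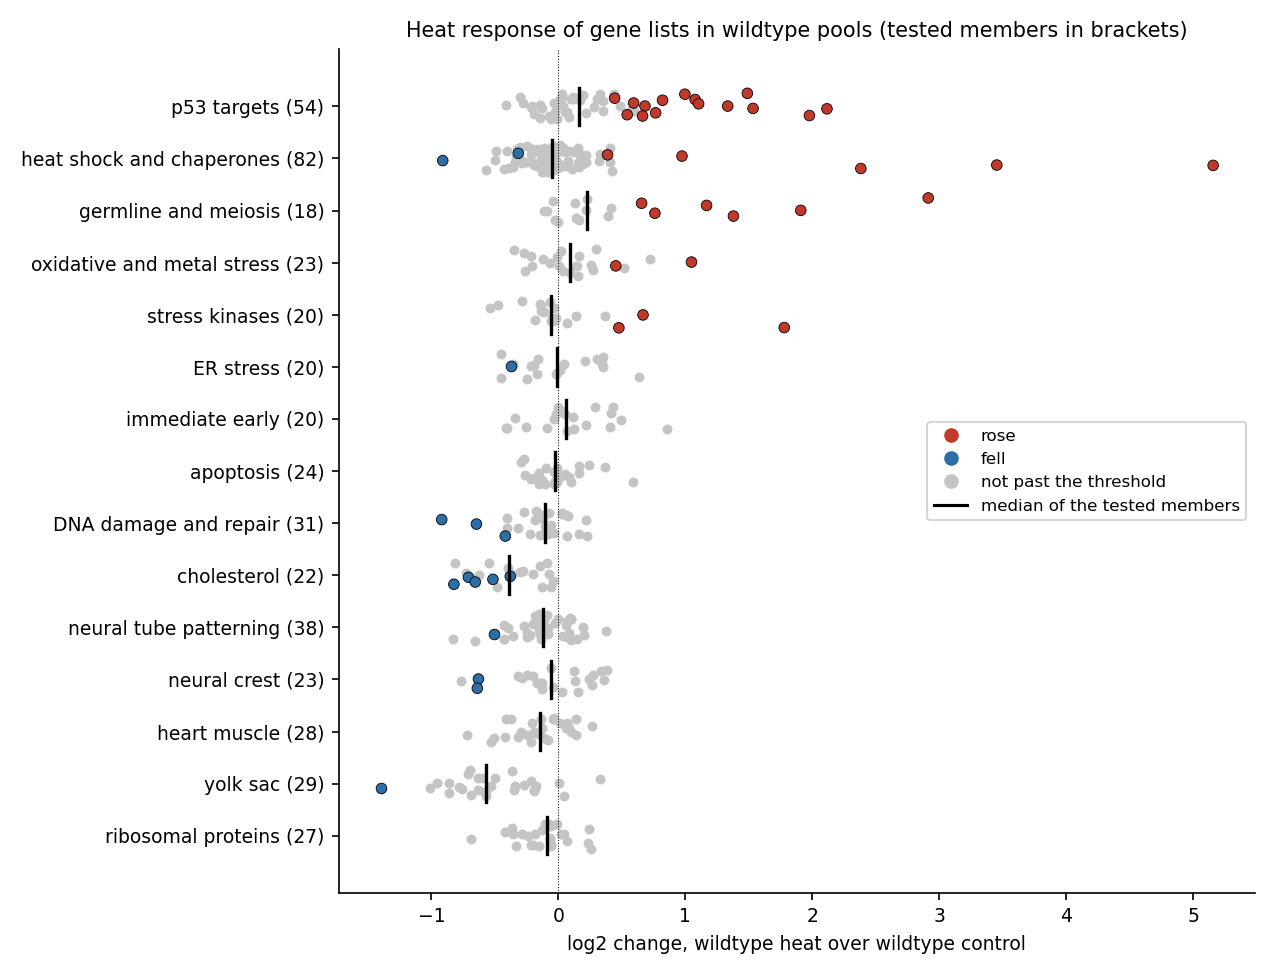
Log2 change of the tested members of 15 gene lists, wildtype heat over wildtype control, 1 point a gene with vertical scatter only for legibility; red rose, blue fell, grey did not pass, and the black bar is the median. The p53 list reaches 2.12 with no fall, the chaperone list is centred at -0.05 with 5 rises, and all 22 cholesterol genes lie below 0.

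Rises outside those groups included stress kinases and a metallothionein. Of 20 tested genes of stress kinase signalling 3 rose (15%, beside 1.2% of all named genes), 6 were above 0 and the median was -0.06. Of 23 tested genes of oxidative and metal stress 2 rose (8.70%). Mapkapk3, a kinase activated by p38, had 2.31, 2.12, 3.03 and 2.30 in heat pools A to D, against 0.817, 0.720, 0.668 and 0.624 in control pools (log2 change 1.78 ± 0.17, adjusted p = 5.24e-06). Mt1, a metal-binding protein raised by metals and stress, had 68.6, 63.2, 47.5 and 47.1 in heat pools, against 21.8, 35.4, 27.5 and 25 in control pools (1.05 ± 0.15, adjusted p = 0.000558). The baths did not overlap for either gene, and heat pools A and B were the higher pair for Mt1. Mt2, also a metallothionein gene, did not pass (log2 change 0.52, adjusted p = 0.16). The adaptor gene Crk rose by 0.67 ± 0.12 (adjusted p = 0.00481) and the autophagy receptor gene Sqstm1 by 0.45 ± 0.10 (adjusted p = 0.0189). The call of Sqstm1 was lost with median scaling, in the deposited scale, without heat pool D or control pool A or C and without heat pools C and D, with log2 changes down to 0.23 and adjusted p up to 0.382. Map3k20, a kinase that senses stalled ribosomes, rose by 0.48 ± 0.08 on its brightest probe (adjusted p = 0.00295) and did not pass on its other 2 probes (0.43 and 0.04). Hmox1, haem oxygenase, had 10.9, 5.29, 12 and 11.1 in heat pools and 5, 5.92, 5.54 and 6.31 in control pools, and missed the threshold (0.72 ± 0.23, adjusted p = 0.10), with heat pool B inside the control range.

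The largest rises also held genes of no list. 1700007K13Rik had 6.12, 5.16, 4.68 and 2.56 in heat pools A to D, against 0.798, 0.670, 0.708 and 0.634 in control pools (log2 change 2.66 ± 0.21, adjusted p = 5.23e-07). Ddit4l, an inhibitor of mTORC1, had 3.20, 1.68, 5.51 and 3.43 in heat pools, against 1.19, 1.18 and 1.40 in control pools A to C (1.34 ± 0.25, adjusted p = 0.00475). Celf5, an RNA-binding protein gene, had 1.62, 1.73, 1.36 and 1.32 in heat pools, against 0.512, 0.602, 0.502 and 0.499 in control pools (adjusted p = 2.66e-06). Its controls lie at or beside the floor of 0.499, so the size of its change is not given. Malat1, a long nuclear RNA, had 4.62, 3.69, 2.88 and 3.50 in heat pools, against 2.45, 1.68, 1.73 and 1.55 in control pools (0.99 ± 0.22, adjusted p = 0.0156). The baths did not overlap for these 4 genes, and the call of Malat1 was lost without heat pool A or control pool D (adjusted p up to 0.0566). Immediate early genes gave no call among 20 tested, at a median of 0.06. Their list median was 0.10, -0.25, 0.34 and 0.20 in heat pools A to D, and Ier3, the largest of them, had 4.11, 2, 9.27 and 4.44 in heat pools, against 1.89, 2.47, 2.51 and 2.69 in control pools (adjusted p = 0.17). Endoplasmic reticulum stress genes gave 1 fall among 20 tested (5%, beside 2.23% of all named genes). It was Sdf2l1 (-0.38 ± 0.08, adjusted p = 0.0164), whose call was lost without heat or control pool A (up to 0.0597).

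Cholesterol synthesis genes were lower in heat pools. Of 22 tested (28 listed) 5 fell (22.7%, beside 2.23% of all named genes) and none rose. This list too was chosen with earlier results of these data known, so its share is a description. All 22 had a log2 change below 0, beside 55.1% of all named genes, and the median was -0.39 beside -0.02. Tm7sf2, a sterol reductase, had 6.85, 7.84, 8.31 and 8.11 in heat pools A to D, against 14.4, 10.9, 13.3 and 10.7 in control pools (log2 change -0.65 ± 0.09, adjusted p = 0.000563). Idi1, which isomerises isopentenyl diphosphate, had 6.39, 8.88, 11.2 and 10.6 in heat pools, against 15.1, 14.8, 19.2 and 15.4 in control pools (-0.82 ± 0.21, adjusted p = 0.0338). The baths did not overlap for either gene. Mvd (-0.71), Fdps (-0.52) and Pmvk (-0.38), enzymes of the mevalonate pathway, fell too. The call of Idi1 was lost without heat pool A or B or control pool A, C or D (adjusted p up to 0.107), that of Fdps without heat pool A or D or control pool A or C (up to 0.0803) and that of Mvd without heat pool A (0.0531). Msmo1, Cyp51, Mvk and Nsdhl, at -0.62, -0.48, -0.73 and -0.54, did not pass. The count of falls was 2 without heat pool A and 3 without control pool A or C, and 9 and 10 with median scaling and with the deposited scale. The list's median was -0.53, -0.40, -0.18 and -0.41 in heat pools, against 0.18, -0.11, 0.10 and -0.07 in control pools. Of 4 fallen genes with a promoter in the table none held the exact letters TCACCCCAC, a sterol regulatory element core, which 0.551% of all promoters hold. For letters this rare a count of none among 4 genes says little.

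Genes that fell had a longer median span in the genome than genes that rose. Gene span, from annotated start to end in RefSeq's GRCm38.p6 table, was known for 99.8% of the named genes tested, and its limits here were chosen after the values were seen. The median span was 27.6 kb for the 311 genes that fell, 16.0 kb for the 166 that rose and had a span, and 20.5 kb for all 13911. Of 361 tested genes over 300 kb, 30 fell (8.31%) and none rose, whereas of 4133 genes under 10 kb 76 fell (1.84%) and 61 rose (1.48%). Between these, the share that fell was 1.96% at 10 to 30 kb, 2.19% at 30 to 100 kb and 2.86% at 100 to 300 kb, and the share that rose was 1.26%, 1.05% and 0.806%. The median log2 change moved little, to -0.06 over 300 kb beside -0.01 under 10 kb.

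That difference was present at each level of intensity. Among genes with a level under 2, 2.97% of those of 100 kb and over fell and 1.3% of shorter ones. At levels of 2 to 8, 4.05% of those of 100 kb and over fell and 2.88% of shorter ones, and at 8 and above 5.76% of those of 100 kb and over and 1.94% of shorter ones. The 30 falls over 300 kb became 18 without control pool D, 19 without heat pool A and 17 in a fit on the 8 wildtype arrays alone, and 54 in the deposited scale. The rises over 300 kb became 3 without heat pools A and B and 1 without C and D.

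**Figure D3:**
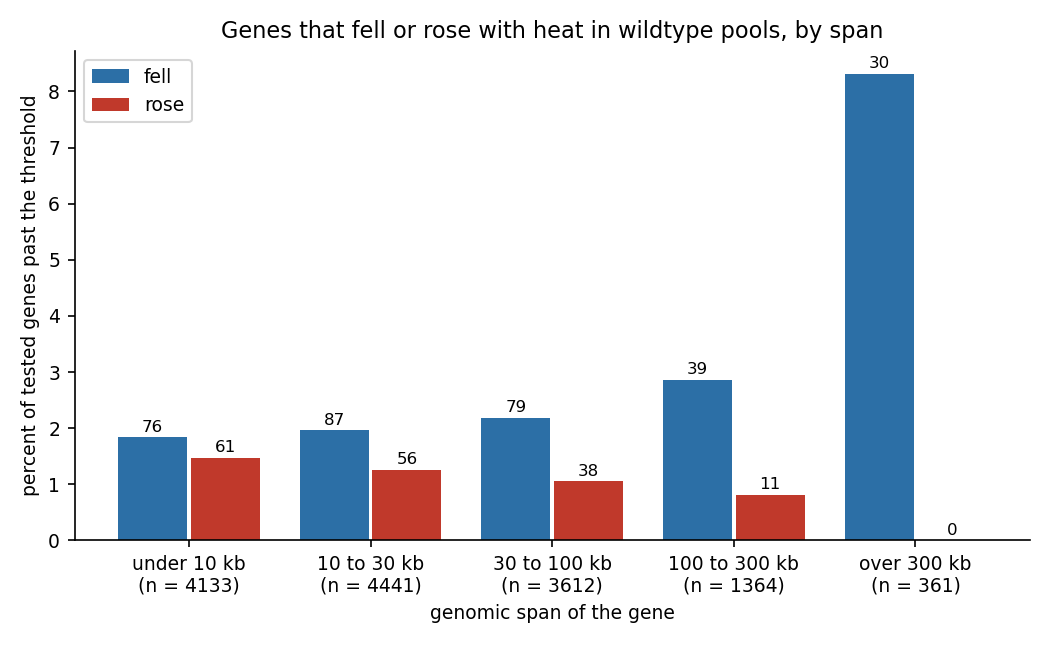
Percent of tested named genes that fell (blue) and rose (red) with heat in wildtype pools, by genomic span in kb, with the number of genes above each bar and the number tested in brackets. The share that fell is 1.84% under 10 kb and 8.31% over 300 kb, and no gene over 300 kb rose.

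Gpc6 had the largest fall of the genes over 300 kb. Gpc6, a glypican (a heparan sulphate proteoglycan at the cell surface) spanning 1055 kb, had 2.64, 2.68, 1.29 and 1.24 in heat pools A to D, against 6.12, 4.78, 4.22 and 5.02 in control pools (log2 change -1.44 ± 0.28, adjusted p = 0.0059). A second Gpc6 probe fell too (-0.83 ± 0.22, adjusted p = 0.0491). Smyd3, a lysine methyltransferase gene, had 2.42, 2.20, 3.50 and 3.06 in heat pools, against 5.55, 4.56, 5.19 and 5.34 in control pools (-0.91 ± 0.14, adjusted p = 0.000816). Neither gene had a heat pool within the control range. Ctnna2, a neural alpha-catenin, fell by 0.77 ± 0.14 on the log2 scale (adjusted p = 0.00515) on its brighter probe, while its dimmer probe was at -0.04. Sdk1 and Opcml, adhesion molecules of the immunoglobulin family, changed by -0.87 and -0.65, Astn1, a neuronal adhesion gene, by -0.97, and Fhit, whose gene spans 1612 kb, by -0.63. Opcml and Fhit were chosen after their values were seen.

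Falls of genes under 300 kb included Pdzph1. It had 3.02, 3.51, 4.74 and 4.52 in heat pools A to D, against 10.4, 8.44, 9.21 and 9.83 in control pools (log2 change -1.28 ± 0.15, adjusted p = 5.23e-05). Dusp19, a phosphatase gene, had 2.14, 2.22, 2.79 and 2.60 in heat pools, against 4.64, 4.28, 4.71 and 4.21 in control pools (-0.88 ± 0.10, adjusted p = 2.37e-05). Adpgk, ADP-dependent glucokinase, had 0.737, 3.48, 0.499 and 0.707 in heat pools, against 7.21, 4.17, 7.65 and 6.76 in control pools (-2.69 ± 0.65, adjusted p = 0.0283). All heat pools of these 3 genes were below the controls, and heat pool B was the one nearest to control for Adpgk, whose call was lost without heat pool A, C or D or control pool A, C or D (adjusted p up to 0.0891). Of 31 tested genes of DNA damage signalling and repair 3 fell (9.68%, beside 2.23% of all named genes), among them the end-joining genes Xrcc6 (-0.42) and Prkdc (-0.65). Ccne2, cyclin E2, fell by 0.45 and was the only call among 30 genes of G1/S and replication. That is 3.33%, near the 3.43% of all named genes called. None of 32 genes of G2/M and mitosis passed, 25 of which were above 0. The calls of Xrcc6, Prkdc and Ccne2 were lost in 4, 7 and 5 of the 8 fits that left out 1 pool (adjusted p up to 0.121, 0.104 and 0.112).

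Lists of genes that mark tissues of the day 8.5 embryo gave 2 calls at most. The shares called were 2.63% for neural patterning, 3.7% for closure, 8.7% for neural crest and 7.69% for endothelium, beside 3.43% of all named genes. Of 38 tested genes of neural tube and brain patterning 1 fell, Otx1, a forebrain and midbrain homeobox gene (7.55, 8.91, 12 and 10.7 in heat pools A to D, 15.2, 13.4, 12.9 and 13.3 in control pools, log2 change -0.51 ± 0.12, adjusted p = 0.0285). Of 27 genes of neural tube closure 1 fell, Alx1 (-0.63 ± 0.13, adjusted p = 0.00777), a homeobox gene of head mesenchyme, and of 23 neural crest genes 2 fell, Alx1 and Barx1 (-0.64 ± 0.14, adjusted p = 0.0138). Among 26 endothelial genes Notch1 rose (0.47) and Emcn fell (-0.75). Alx1 kept its call with any 1 pool left out and lost it in a fit on the 8 wildtype arrays alone (adjusted p 0.057), whereas Otx1, Barx1, Notch1 and Emcn lost theirs in 5, 2, 5 and 4 of 8 such fits (adjusted p up to 0.0908, 0.0574, 0.105 and 0.0814). None of 23 somite, 28 heart muscle, 18 primitive red cell, 31 Hox or 42 Wnt, FGF and BMP genes passed. In whole-embryo pools, fewer cells of a type and less RNA per cell cannot be told apart.

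Yolk sac and visceral endoderm genes differed between pools of the same bath. Their list (29 tested) had a median of 0.13, -0.91, -0.80 and -0.63 in heat pools A to D, as log2 differences from the control mean, against -0.23, 0.22, -0.21 and 0.25 in control pools. Heat pool A lay with the controls and the other 3 heat pools below them. Of the 29 genes 3.45% passed, beside 3.43% of all named genes. Apoa2, an apolipoprotein of the yolk sac, was the only member that fell (5.47, 2.26, 2.63 and 2.50 in heat pools, 4.16, 11.7, 9.14 and 8.86 in control pools, log2 change -1.40 ± 0.36, adjusted p = 0.0403), with heat pool A above control pool A; its call was lost in 6 of the 8 fits that left out 1 pool (up to 0.104). Ttr had 91.9, 45.6, 45.2 and 49.6 in heat pools, against 71.1, 104, 74.3 and 99.9 in control pools, and did not pass (adjusted p = 0.17). Whether the share of yolk sac in a pool moved other genes was not tested. Markers of trophoblast and of gut gave 1 rise, Krt19 (0.56 ± 0.10, adjusted p = 0.0033), a keratin in both lists. It is 7.69% of 13 trophoblast and 5.88% of 17 gut genes tested, beside 1.2% of all named genes.

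**Figure D4:**
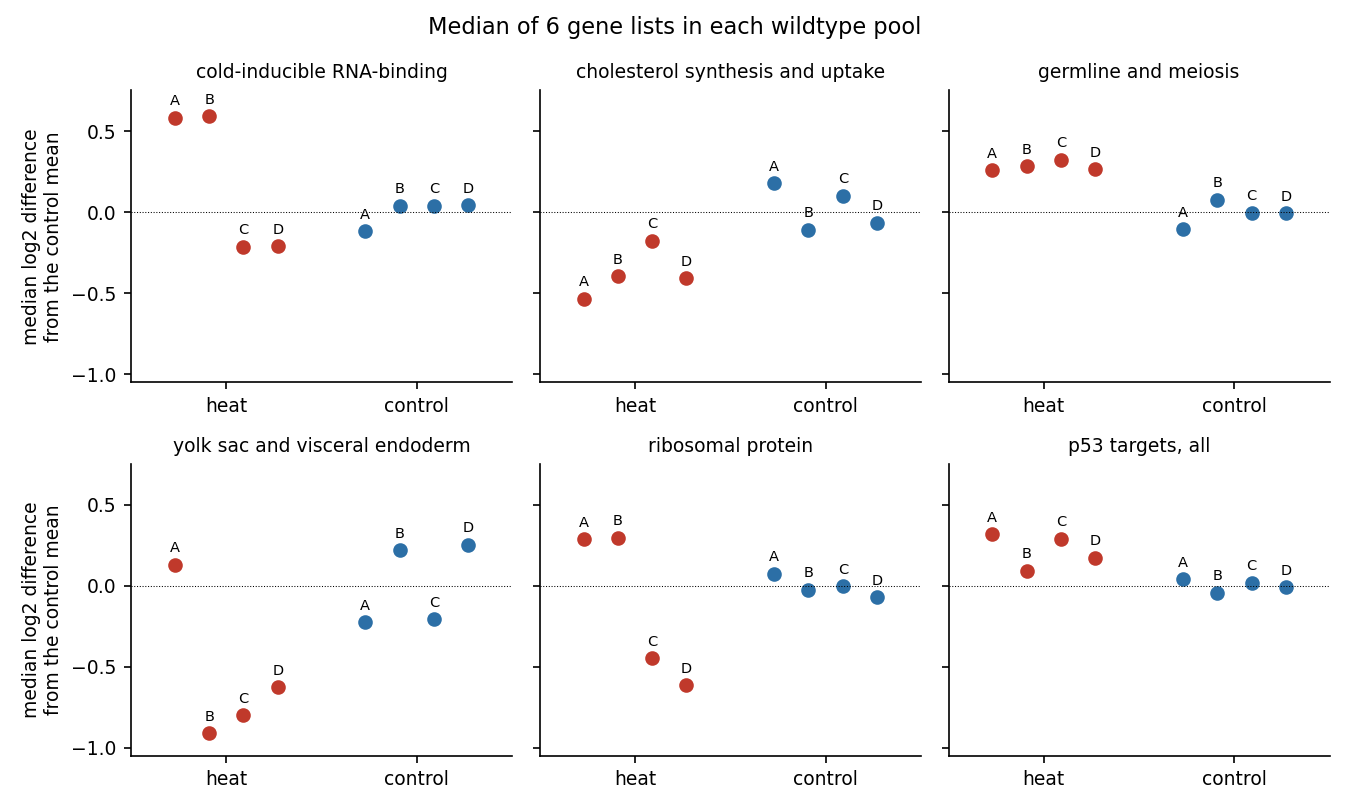
Median over list members of the log2 difference from the control mean, in each wildtype pool, heat at the left and control at the right of each panel, 1 lettered point a pool. The ribosomal protein list and the cold-inducible list (Cirbp and Rbm3, carried by Rbm3) split heat pools A and B (0.29 and 0.58 or above) from C and D (below -0.2). Germline genes are at 0.26 to 0.32 in all heat pools, and yolk sac genes are low in heat pools B, C and D.

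Other settings ended calls of genes described above. In a fit on the 8 wildtype arrays alone 28 of 79 named calls were lost, among them Sesn2, Plk2, Slc19a2, Ddit4l, Hspb3, Dnajc17, Apoa2, Adpgk, Idi1, Fdps, Mvd, Sdf2l1, Xrcc6, Prkdc, Ccne2, Otx1, Barx1, Notch1 and Emcn. Without heat pools C and D 27 were lost, among them Hspa1a, Hspa1b, Hspb8, Cdkn1a, Plk2, Abhd4, Ak1, Slc19a2, Stag3, Tex15, Gpc6, Adpgk and Apoa2. Without heat pools A and B 12 were lost, among them Malat1, Tex15, Idi1, Fdps, Mvd, Otx1 and Sdf2l1. In the deposited scale 10 were lost, among them Ak1, Plk2, Krt19, Map3k20, Notch1 and Tex15, and with median scaling 5, among them Plk2 and Notch1.

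The other genotypes show where the wildtype response differed. The difference of heat responses, null minus wildtype, passed for 225 of 23684 probes (0.95%) and heterozygous minus wildtype for 0 of 24145 (0%), with limma, the only tool run, where 1479 had an unadjusted p under 0.05. The heterozygous count was 15 without wildtype heat pool B, 1 without heat pool D and 337 without heat pools A and B. The null count was 350 without wildtype heat pool B, 75 and 51 without heat pools C and D, and 61, 36 and 39 without control pools B, C and D. Of the 53 p53 targets with a test of the null difference 7 passed, Dcxr, Phlda3, Ccng1, Zmat3, Klhl26, Bbc3 and Ak1, each with the lower response in null pools. Over all named genes 85 of 13364 passed, of which 38 had the lower response in null pools. None of the 15 p53 targets that rose in wildtype pools rose in null pools, and 2 (Ccng1 and Zfp365) rose in heterozygous pools. Their median log2 change was 0.08 in null pools and 0.24 in heterozygous pools, against 0.997 in wildtype pools, where they were chosen as rises, so that their level there is a description.

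Ccng1 changed by 0.28 in null pools and 1.38 in heterozygous pools, against 1.53 in wildtype pools, on the log2 scale. Phlda3 changed by 0.20 in null pools and 0.34 in heterozygous pools, against 1.49 in wildtype pools. For Cdkn1a, at 1.14 in null and 0.59 in heterozygous pools against 2.12 in wildtype pools, the null difference did not pass (adjusted p = 0.42). Mapkapk3, Map3k20, 1700007K13Rik and Ddit4l passed with the lower response in null pools, by -1.19, -0.80, -1.89 and -1.54. These genes were named for their wildtype rises, which favours a difference in this direction.

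Tcte3, Hspb1 and several germline and cholesterol genes passed the test in the other genotypes too. Tcte3 changed by 3.24 in null pools and 2.81 in heterozygous pools, against 2.91 in wildtype pools, and Hspb1 by 2 in null pools and 2.05 in heterozygous pools, against 2.38 in wildtype pools. Of the 6 germline rises 5 also rose in null and 4 in heterozygous pools. Of the 5 cholesterol falls 4 also fell in null and 4 in heterozygous pools, and of the 30 falls over 300 kb 9 also fell in null and 21 in heterozygous pools. These sets were chosen as wildtype calls, which favours lower counts in the other genotypes. Over all 361 tested genes over 300 kb the median log2 change was -0.13 in null pools. It was -0.06 in heterozygous and -0.06 in wildtype pools. Over the 9 small heat shock genes tested the median was 0.05 in null pools and -0.04 in heterozygous pools, against -0.21 in wildtype pools. No germline, cholesterol or long gene of these sets passed the test of the null difference, which does not show that their responses were equal. Over all named genes, 61 of the wildtype falls (19.6%) were among the 349 null falls (17.5% of those), and 132 (42.4%) were among the 309 heterozygous falls (42.7%). For rises, 44 (26.3%) were among 417 in null pools (10.6%) and 49 (29.3%) among 118 in heterozygous pools (41.5%).

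**Figure D5:**
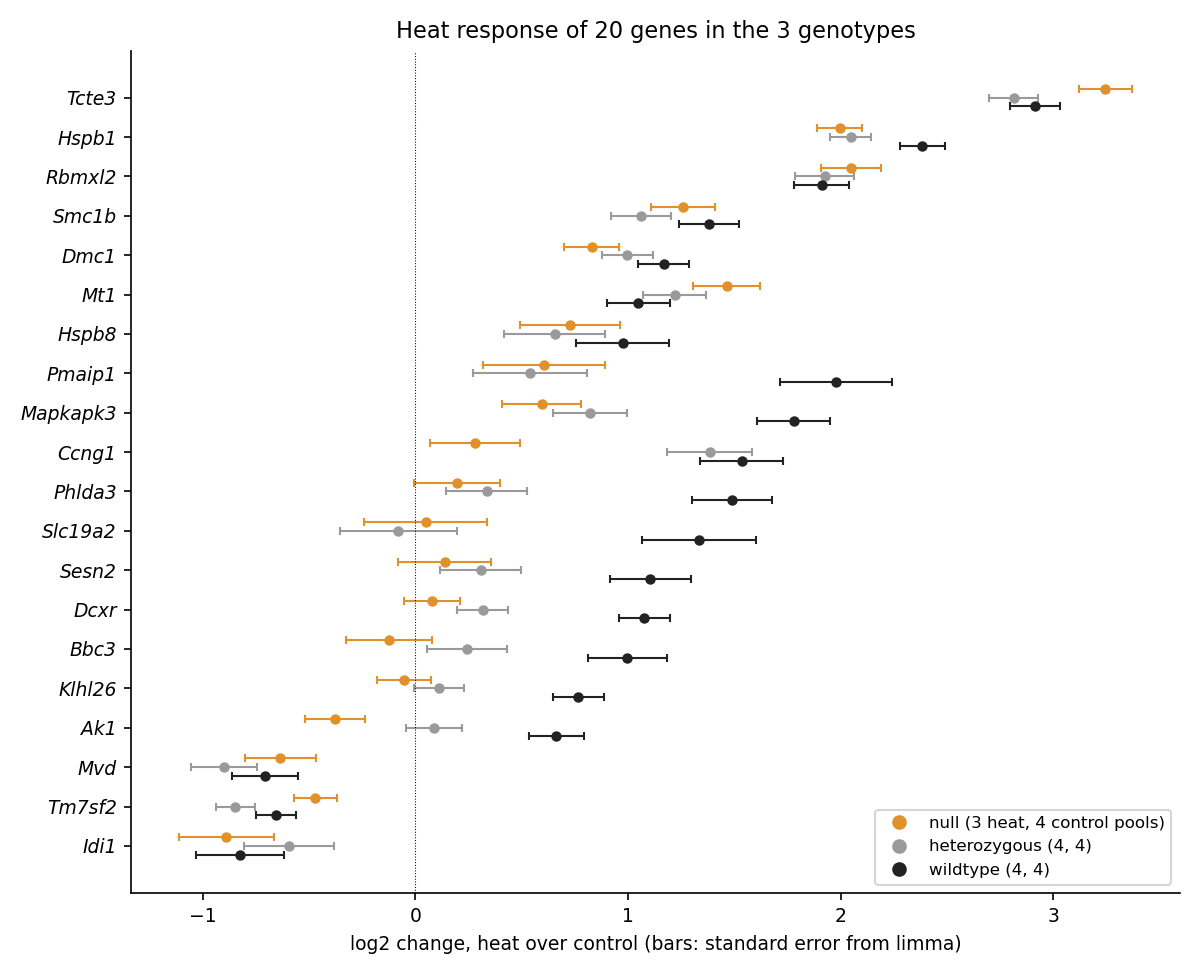
Log2 change with heat (horizontal axis, bars are limma standard errors) of 20 genes in null, heterozygous and wildtype pools, from top to bottom within each gene. Tcte3, Hspb1, Rbmxl2 and the cholesterol genes at the foot lie on 1 side of 0 in all genotypes, while Phlda3 is at 0.20 in null, 0.34 in heterozygous and 1.49 in wildtype pools.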

How the data were processed

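Total RNA of pooled whole embryos was labelled with biotin, detected with Alexa-647 streptavidin and read on CodeLink 1-colour arrays, per the labels' protocols. The deposited values are linear intensities that the authors made with a background step, scaling and spot filter not given in the sources used here. Cells that were empty or coded -9999 were treated as missing. Arrays were quantile normalised with a map built on the 18699 probes with a positive value on all 23 arrays and interpolated for the others. Values were then raised to a common floor of 0.499 and taken to log2. Probes with at least 3 values in each bath were fitted with limma 3.58.1 (R 4.3.3, intensity trend, two-sided), with 1 mean for each of the 6 groups and all 23 arrays in the fit, with Benjamini-Hochberg adjustment over all probes tested. The number of arrays limits the precision. Symbols came from the platform annotation, updated by gene ID (RefSeq, GRCm38.p6): 21615 probes have 1 symbol, 681 several and 13931 none listed. For a gene with several probes the one of highest mean over the wildtype arrays stands for it. Probes have no common scale, so levels are compared within a probe only. Named are the 25 largest rises and falls whose baths do not overlap, list members past the threshold (up to 8 of smallest p, or 2 where none passed) and 26 stress genes, with others chosen after their values were seen. Members and the 40 gene lists were chosen with earlier results of these data known. No probe is named Trp53, so the genotype labels were not checked with it. 1 fall of the DNA repair list is not reported here. The method was tested on simulated data.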

Additional observations from a re-analysis of the deposited data

Results flagged for a closer look

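Of 242 groups of 4 pools, those with a missing value were skipped, and 12 had a pool far from the other 3. Chance flags about 1 in 20 groups, so the 12 flags are near the number that chance gives. Heat pool B was low for Hspa1a (0.877, others 79.1 to 123), Hspa1b (4.18, others 101 to 126), Hmox1 (5.29, others 10.9 to 12) and Dmc1 (1.74, others 2.04 to 2.10). Heat pool A was low for Hspb3 (0.779), and heat pool C high for the proteasome gene Psmb6 (147). Control pool C was high for Idi1 (19.2), Pmvk (33.2) and Hoxb1 (32.5), control pool B high for Celf5 (0.602) and low for Crk (4.37), and control pool A low for the cold-inducible gene Cirbp (22.6, others 30.6 to 31.2).

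The heat responses of 13 named genes differed between null and wildtype pools (limma, adjusted over 23684 probes), each lower in null pools. Most of them were named for their wildtype rises, and over all named genes 85 passed, 38 of them lower in null pools. The null minus wildtype log2 differences were -1.89 for 1700007K13Rik (adjusted p = 0.0124), -1.54 for Ddit4l (0.0353), -1.33 for Celf5 (0.00533, with wildtype controls at or beside the floor), -1.29 for Phlda3 (0.0275), -1.25 for Ccng1 (0.0385), -1.19 for Mapkapk3 (0.0276) and -1.12 for Bbc3 (0.0494). They were -1.04 for Ak1 (0.0191), -0.997 for Dcxr (0.0191), -0.82 for Klhl26 (0.0285), -0.80 for Map3k20 (0.00962), -0.75 for Cdc42bpg (0.0432) and -0.47 for Zmat3 (0.0275). Whether each of these differences passed in the other fits was not examined gene by gene.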

How the results depend on the processing

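Of 79 named genes past the threshold 34 passed in all 20 alternatives, of which 18 were planned and 2 (leaving out heat pools A and B, or C and D) were chosen after seeing the data; none reversed. The wildtype count of 733 probes became 1279 with median scaling, 2111 as deposited, 1421 with array weights and 1971 without heat pools A and B, and ran from 389 to 851 with 1 pool left out. The share of higher calls was 36% with median scaling, 12.7% as deposited and 57.6% in a fit on the 8 wildtype arrays, beside 43.1%. The null minus wildtype count of 225 became 487, 665, 343, 2500 and, without heat pools C and D, 13 (36 to 350 with 1 wildtype pool left out). All pools left out were wildtype, and no fit left out a null or heterozygous pool. The heterozygous minus wildtype count of 0 became 337 without heat pools A and B and 1 without C and D (0 to 15). Risen heat shock genes numbered 3 as deposited, 2 on the wildtype arrays alone and 2 without heat pools C and D (1 to 6). Fallen cholesterol genes numbered 9 with median scaling, 10 as deposited and 3 without heat pools A and B (2 to 7). Risen p53 targets numbered 9 without heat pools C and D (13 to 19). Falls over 300 kb numbered 54 as deposited, 48 with array weights and 17 on the wildtype arrays alone (18 to 31), and rises there 3 without heat pools A and B and 1 without C and D. The causes were not tested. Deviations of heat and control pools of the same letter had r of 0.27, -0.02, 0.12 and 0.13 for A to D. Those of different letters had r from -0.20 to 0.09, below the values of A, C and D. Whether pools of a letter share an effect was not tested. The labels name no pairs, and the main fit did not take the letters as pairs. With a replicate block 875 probes and 16 p53 targets passed. Empty control cells limit the dimmest and brightest genes, which were left out of the test.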
